A study of Rattus norvegicus with 6 samples.

Results

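A set of 9 enzymes that make the building blocks of DNA were followed through the genes that encode them: Rrm1, Rrm2, Tk1, Tyms, Dut, Dck, Dctd, Cad and Umps. They were given by name, and an array probe was taken as a member's where its RefSeq mRNA accession belongs to that gene, with the probe of highest mean signal standing for the gene. Of the 9 genes 8 had such a probe and all 8 could be tested, among 10001 named protein-coding genes tested in all. Tk1, which encodes the cytosolic thymidine kinase, had no matching probe, so its expression was not analysed here.

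H9c2 myocytes, a line from embryonic rat heart, were studied after hypoxia/reoxygenation (H/R), when they had spent 1 h at 1% oxygen, 5% carbon dioxide and 94% nitrogen and then 3 h at normal oxygen, with neither serum nor glucose supplied. They were compared with control H9c2 myocytes kept at normal oxygen, with 3 samples in each group. Routine culture used 10% serum and glucose at 4500 mg/L. What medium the control cells had during the experiment is not stated, so lack of oxygen and lack of serum and glucose cannot be told apart. All samples come from 1 cell line, and a sentence of the protocol that names mouse brain as the RNA source conflicts with every other label.

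RNA cleared of ribosomal RNA was labelled with Cy3 by random priming and read on 1-colour Agilent arrays, and every level below is a log2 signal minus the 75th percentile of its array. Between 58.4% and 71.1% of the 42136 non-control spots of a file were well above background, with 0 saturated, and the number of arrays limits the precision. Within a group, replicates 2 and 3 are scans of 1 slide position: they shared 36 spots with uneven background, other pairs of files at most 1, and their median difference was 0.023 on the log2 scale, compared with 0.123 to 0.158 for replicate 1 and either of them. They differed by less than the noise between arrays and were counted as 1 sample called array 2, replicate 1 being array 1, so each group has n = 2. The design text speaks of 3 independent experiments in each group, which the shared spots of replicates 2 and 3 go against, and the p-values rest on a spread between 2 arrays that may be technical. Slide position cannot be told apart from group, as no position was used by 2 arrays. Of 12 muscle markers, among them Myod1, Myog and Des, all 12 were well above background in at least 3 files, and 1 fell and 3 rose after H/R. Myod1 fell to 0.36 of control, while Tnnt2 rose 2.18-fold and Myh6 1.98-fold. The third that rose, Chrna1, was well above background in 3 H/R files and 0 control files. It was tested only because of its H/R signal, so its rise says little. Des was not called, and its H/R arrays lay far apart (-0.47 and 1.46). Of 6 fibroblast markers tested 0 fell and 2 rose, namely Lum and Dcn. Across all named genes tested 9.62% were called lower and 16.2% higher. The summed signal of the fibroblast markers, relative to the 75th percentile of each array, was 64.8 to 66.2 in H/R files and 51.6 to 62.1 in control files. That sum rests mostly on Col1a2 and Col3a1 (mean H/R levels of 4.92 and 5.10), which were not called. Lum and Dcn were far dimmer (-1.22 and -2.46). The part of the muscle and fibroblast markers in the differences described here was not tested. The leukocyte genes Ptprc, Adgre1 and Itgam and the neuronal genes Rbfox3, Slc17a7 and Gad1 were not well above background in any file. The leukocyte genes Csf1r, Aif1 and Cd68 and the glial genes Mbp, Mog and Gfap, however, were so in every file. Mrc1 was so in 2 H/R files and the neuronal gene Syt1 in 1 control file. Of the 3 leukocyte and 3 neuron and glia markers tested, 0 fell and 0 rose.

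Cells copy DNA from deoxynucleoside triphosphates, which they make mainly by reducing ribonucleotides. Ribonucleotide reductase, built from a large subunit (Rrm1) and a small one (Rrm2), does this reduction, while the thymidine branch runs through dCMP deaminase (Dctd), dUTP pyrophosphatase (Dut) and thymidylate synthase (Tyms). Cad and Umps encode the multifunctional proteins that open and close the synthesis of the pyrimidine UMP, and deoxycytidine kinase (Dck) salvages deoxynucleosides. Several of these genes are known targets of E2F factors, which switch on genes for DNA synthesis as cells enter S phase.

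The promoters of the 3 measured members with an E2F motif match are printed, as they include the members of largest and smallest fitted difference. Each is the window of 250 bases before a RefSeq transcript start (GRCr8), written 5′ to 3′ on the gene's strand. The Dctd window is chr16:50831160-50831409 (minus strand), the Tyms window chr9:120776084-120776333 (minus strand) and the Rrm1 window chr1:166235654-166235903 (plus strand). Capitals mark matches to the motifs searched on both strands, which were E2F (TTCCCGC or TTCGCGC or TTGGCGC or TTGCCGC), NF-Y (CCAAT), the E-box CACGTG and the cell-cycle element CHR (TTTGAA).
Dctd: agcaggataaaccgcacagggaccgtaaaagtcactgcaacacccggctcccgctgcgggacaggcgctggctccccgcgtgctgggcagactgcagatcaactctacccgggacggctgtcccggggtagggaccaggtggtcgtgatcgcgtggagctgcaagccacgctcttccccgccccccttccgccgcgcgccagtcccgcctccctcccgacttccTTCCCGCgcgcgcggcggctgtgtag
Tyms: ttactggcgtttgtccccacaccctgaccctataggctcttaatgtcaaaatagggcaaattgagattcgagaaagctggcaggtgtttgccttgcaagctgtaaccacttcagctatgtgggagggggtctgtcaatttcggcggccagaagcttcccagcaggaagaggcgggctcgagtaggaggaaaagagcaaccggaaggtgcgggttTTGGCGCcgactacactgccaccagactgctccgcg
Rrm1: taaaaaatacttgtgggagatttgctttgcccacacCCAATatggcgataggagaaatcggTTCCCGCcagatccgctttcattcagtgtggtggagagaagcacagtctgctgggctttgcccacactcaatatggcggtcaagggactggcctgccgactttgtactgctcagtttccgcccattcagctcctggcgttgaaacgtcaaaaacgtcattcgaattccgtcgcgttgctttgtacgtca
The E2F match begins 26 bases before the start in Dctd, 36 in Tyms and 189 in Rrm1, where a CCAAT match lies at 214. An E2F match was found in 3 of the 8 windows of 7 members, Tk1 included, and in 7.59% of all 33469 RefSeq windows of this length. CCAAT was in 1 of the 8 windows (34.0% of all), CHR in 2 (16.2% of all) and CACGTG in 0 (5.59% of all). Rrm2 and Umps had no entry. A match is a description of letters and not evidence of binding, and the windows without one, such as that of Cad, show only that these letters are not there.

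After H/R 2 of the 8 genes fell and 0 rose, by limma with a threshold of 0.05 on p-values adjusted over all 15899 tested probes. Across all named genes tested 9.62% were called lower by this rule and 16.2% higher (8.87% and 14.8% of probes). Those that fell were Dctd, to 0.638 of its control signal, and Umps, to 0.666. Tyms, Dut, Rrm2 and Dck lay 13.0% to 25.6% lower in H/R without passing, and Cad and Rrm1 differed by 3.98% and 0.38%. All 8 fitted differences were below 0, as were those of 42.8% of all genes, and their median was -0.22 against 0.07 for all genes. In 6 of the 8 genes every H/R file lay below every control file, which was so for 27.9% of all genes.

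**Figure D1:**
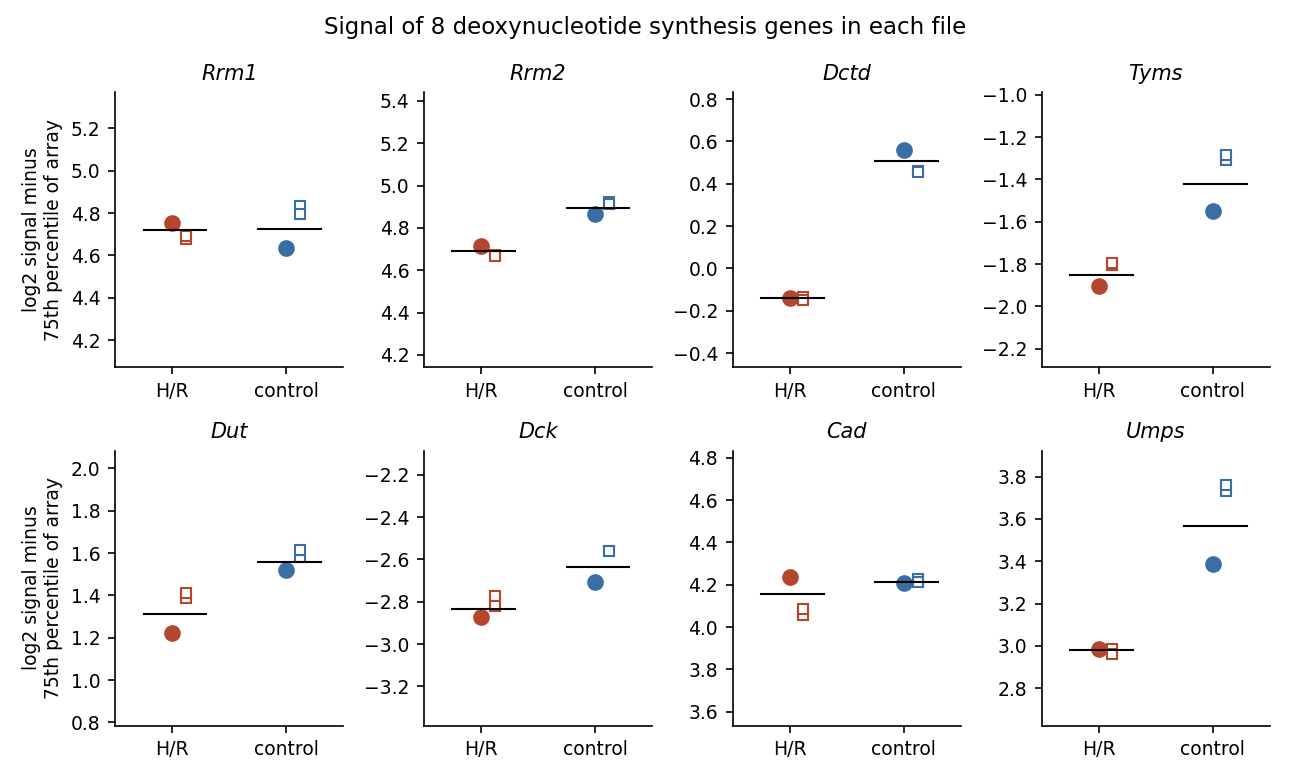
Each panel plots the log2 signal of 1 gene minus the 75th percentile of its array (y axis, each panel spanning the same range of log2 units) in H/R and control files. The filled circle is replicate 1 (array 1), the open squares are replicates 2 and 3 (both array 2), and the line is the mean of the 2 arrays. H/R files lie below all control files for Rrm2, Dctd, Tyms, Dut, Dck and Umps, and the groups overlap for Rrm1 and Cad.

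Both subunits of ribonucleotide reductase, which sets the supply of all deoxynucleotides, stayed short of the threshold. Rrm1 (NM_001013236), the large subunit that binds substrates and regulators, had levels of 4.75, 4.68 and 4.69 in H/R replicates 1 to 3 and 4.64, 4.83 and 4.80 in control replicates 1 to 3. The groups overlap, and control array 1 gave the lowest file. The difference was -0.01 ± 0.11 (SE from the moderated fit, as for every difference that follows, adjusted p = 0.974), with a 95% interval of -0.29 to 0.28. Rrm2 (NM_001025740), the small subunit that carries the radical and is made mainly in S phase, had levels of 4.71, 4.67 and 4.66 in H/R files and 4.87, 4.92 and 4.91 in control files. The groups do not overlap, but the difference of -0.20 ± 0.09 did not pass (adjusted p = 0.177, interval -0.44 to 0.04).

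Dctd (NM_001013882), which turns dCMP into the dUMP that feeds thymidylate synthesis, fell most. Its levels were -0.14, -0.13 and -0.15 in H/R files and 0.56, 0.46 and 0.45 in control files. The groups are far apart, with array means of -0.14 ± 0.00073 in H/R and 0.51 ± 0.07 in control (SD, n = 2 arrays each). In log2 units it fell by 0.65 ± 0.10 (adjusted p = 0.0134, interval -0.90 to -0.40). A second probe, designed on another Dctd transcript (NM_001161512), read -0.15, -0.27 and -0.26 in H/R files and 0.39, 0.38 and 0.36 in control files. It gave a fall of 0.59 ± 0.10 (adjusted p = 0.0173), so the probes differ by less than the SE of either. Leaving out either H/R array ended the call with the difference still -0.65 (adjusted p = 0.0774 without replicate 1 and 0.0803 without replicates 2 and 3).

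Tyms (NM_019179), which methylates dUMP to dTMP and is the target of fluorouracil, had levels of -1.90, -1.81 and -1.79 in H/R files and -1.55, -1.31 and -1.28 in control files. Every H/R file was lower, yet the 2 control arrays themselves lay 0.25 apart. The difference of -0.43 ± 0.12 did not pass (adjusted p = 0.0684, unadjusted 0.0195, interval -0.75 to -0.10). With arrays scaled to their median instead, it was -0.55 and passed (adjusted p = 0.0352). With a variance trend it passed too (-0.43, adjusted p = 0.0392). In all, Tyms passed in 4 of 18 alternatives. After normexp background correction it was -0.14 (adjusted p = 0.659), and without the filter on dim probes the adjusted p was 0.198. With 1 array left out the difference was -0.55 to -0.30.

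Dut (NM_053592), which hydrolyses dUTP to dUMP and so keeps uracil out of DNA, had levels of 1.22, 1.39 and 1.41 in H/R files and 1.52, 1.58 and 1.61 in control files. H/R array 1 was the lowest, and the groups do not overlap. The difference was -0.25 ± 0.11 (adjusted p = 0.164, interval -0.53 to 0.04), and it was -0.16 without H/R replicate 1. A second probe designed on another Dut transcript (NM_001040271) read 0.82, 1.07 and 1.07 in H/R files and 1.38, 1.39 and 1.38 in control files. Its difference of -0.44 ± 0.12 was larger and also did not pass (adjusted p = 0.0579).

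Dck (NM_024158), the salvage kinase that also activates cytarabine and gemcitabine, was, like all 8 genes, well above background in all 6 files. It had levels of -2.87, -2.77 and -2.82 in H/R files and -2.71, -2.56 and -2.56 in control files. The groups do not overlap, and the difference of -0.20 ± 0.10 did not pass (adjusted p = 0.217, interval -0.47 to 0.07). It was -0.13 without control replicates 2 and 3, and after normexp background correction its sign turned, to 0.24 (adjusted p = 0.677).

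Of the 2 members in UMP synthesis, Umps was called and Cad was not. Cad (NM_001105710), which opens the pathway with carbamoyl phosphate synthesis, had levels of 4.24, 4.06 and 4.09 in H/R files and 4.21, 4.23 and 4.21 in control files. The groups overlap, since H/R array 1 was the highest file, and the difference was -0.06 ± 0.10 (adjusted p = 0.705, interval -0.33 to 0.21). Umps (NM_001025402), which makes UMP from orotate, had levels of 2.99, 2.98 and 2.96 in H/R files and 3.39, 3.73 and 3.76 in control files. The H/R arrays nearly coincide, while the control arrays lay 0.36 apart. Umps fell by 0.59 ± 0.15 (adjusted p = 0.0465, interval -0.96 to -0.21). Without control replicates 2 and 3 the difference was -0.41 and the call was lost (adjusted p = 0.0850), as it was without H/R replicate 1 (-0.59, adjusted p = 0.151) or H/R replicates 2 and 3 (-0.58, adjusted p = 0.167). Without the filter on dim probes, or after normexp correction, neither Dctd (adjusted p = 0.0778 and 0.310) nor Umps (adjusted p = 0.153 and 0.368) passed.

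**Figure D2:**
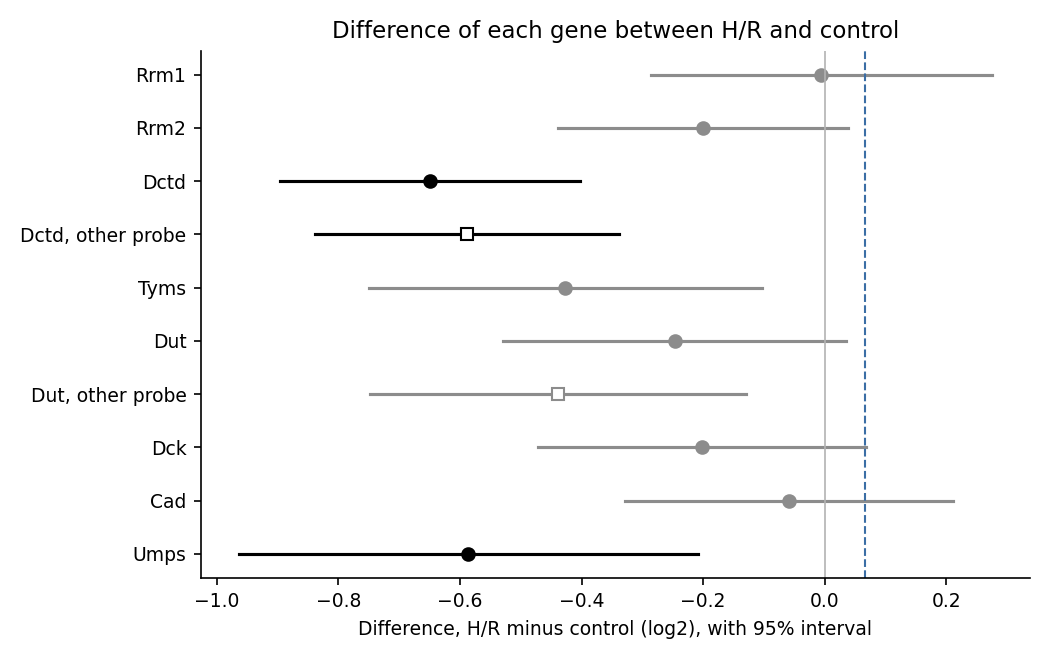
The x axis is the difference between H/R and control (H/R minus control, log2) of each gene, with its 95% interval from the moderated fit. Circles are the probes that stand for the genes, open squares other probes of Dctd and Dut, black marks an adjusted p under 0.05, and the dashed line is the median of all named genes at 0.07. The intervals of Dctd, Umps, Tyms and the second Dut probe lie below 0, and those of Rrm1, Rrm2, Dut, Dck and Cad include it.

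Ratios of 2 probes on the same array do not depend on how arrays are scaled, so they show whether members moved unequally. The log2 ratio of Dctd to Rrm1 was lower in H/R by 0.64 and the ratio of Umps to Rrm1 by 0.58, with no overlap between arrays of the groups. For Tyms over Rrm1, Dut over Rrm1 and Rrm2 over Rrm1 the H/R minus control values were -0.42, -0.24 and -0.20, and for Umps over Cad -0.53, also without overlap. These 6 ratios were chosen after the values were seen. Rrm1 had the smallest difference of the members, so the ratios over it largely repeat the differences given above and add no separate evidence. An exact permutation test of 2 against 2 arrays cannot go below a two-sided p of 0.333, which each of these ratios gave.

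Of 23 other deoxynucleotide genes listed, 18 had a probe and were tested, and 1 fell and 1 rose, with a median of -0.06. For this list and those that follow, the shares over all named genes were 9.62% lower and 16.2% higher, with a median of 0.07. No list was tested as a set. Upp1, which encodes uridine phosphorylase, fell to 0.327 of control (by 1.61 ± 0.09, adjusted p = 0.00205), with levels of -0.51 to -0.58 in H/R files and 1.06 to 1.09 in control files. Upp1 passed in 16 of 17 alternatives, all but normexp correction. Slc29a1, an equilibrative nucleoside transporter gene, rose 1.49-fold (adjusted p = 0.0334), a call that held in 8 of 17 alternatives. It was lost when any 1 array was left out, with quantile normalization (adjusted p = 0.0522) or scaling to the median (adjusted p = 0.0569), in the authors' deposited log2 values (adjusted p = 0.0646), without the filter on dim probes and after normexp correction. Rrm2b, the p53-induced small subunit that can replace Rrm2, had levels of -3.48, -3.32 and -3.29 in H/R files and -3.73, -3.63 and -3.66 in control files. All its H/R files were higher, opposite to Rrm2, and the difference of 0.30 ± 0.11 did not pass (adjusted p = 0.114).

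The mitochondrial salvage kinases Dguok and Tk2 differed by 0.22 ± 0.09 and 0.10 ± 0.11 (adjusted p = 0.147 and 0.549), the sign for Tk2 turning with scaling to the median (-0.03). The thymidylate kinase gene Dtymk differed by -0.08 ± 0.09 (adjusted p = 0.563). Cda, which encodes cytidine deaminase, differed by -0.41 without passing (adjusted p = 0.0663) and turned to 1.01 after normexp correction.

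Among the other pyrimidine nucleotide genes 8 of 14 were tested, of which 1 fell and 2 rose, with a median of -0.11. The one that fell was Upp1 again. Uckl1, which encodes a uridine-cytidine kinase-like protein, rose 1.60-fold (adjusted p = 0.0135), and Ctps2, which makes CTP from UTP, rose 1.51-fold (adjusted p = 0.0258). Uckl1 passed in 13 of 17 alternatives and Ctps2 in 10 of 17. Among other losses, the call of Uckl1 was lost without either H/R array, and that of Ctps2 when any 1 array was left out. Ctps1, the paralog of Ctps2, differed by 0.20 ± 0.10 (adjusted p = 0.201) and Uck1 by -0.40 ± 0.12 (adjusted p = 0.0769). Dhodh, the mitochondrial enzyme between the steps of Cad and Umps, differed by -0.08 ± 0.12 (adjusted p = 0.652), turning to 0.04 without control replicates 2 and 3.

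Genes of de novo purine synthesis and purine salvage gave 3 falls and 0 rises among 13 tested of 15, with a median of -0.14. Ppat, which catalyses the committed step, fell by 0.63 ± 0.09 (adjusted p = 0.0133), and Gart, a trifunctional enzyme of the pathway, fell by 0.51 ± 0.09 (adjusted p = 0.0216). Prps2, which makes the ribose donor PRPP, fell to 0.413 of control (adjusted p = 0.0134), with levels of -0.75, -0.78 and -0.74 in H/R files and 0.26, 0.78 and 0.77 in control files. Its paralog Prps1 missed the threshold at -0.39 ± 0.10 (adjusted p = 0.0532). Without H/R replicate 1 or H/R replicates 2 and 3, 0 of these genes were called lower, and without control replicate 1 the count was 1. It was also 0 without the filter on dim probes and after normexp correction, and 5 with arrays scaled to their median. Of 10 folate one-carbon genes tested of 16, 0 fell and 1 rose, with a median of -0.05. This was Mthfs (1.49-fold, adjusted p = 0.0169), which passed in 12 of 17 alternatives. Among other losses, its call was lost without either H/R array or without control replicates 2 and 3. Mthfd1 and Mthfd2 differed by -0.31 and -0.24 without passing (adjusted p = 0.115 and 0.124).

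Markers of S phase were lower in H/R as well. Of 20 listed genes 13 were tested, and 12 fell and 0 rose, with a median of -0.78. Cdc6 and Cdc45, which act at replication origins, fell to 0.393 and 0.448 of control (adjusted p = 0.00377 and 0.00514), and Cdt1 and Gins2 each to 0.504 (adjusted p = 0.00657 and 0.00600). Pcna, the polymerase clamp, fell to 0.656 (adjusted p = 0.0189), which did not pass without either H/R array or without control replicates 2 and 3. The summed signal of the list, relative to the 75th percentile of each array, was 73.6 to 74.5 in H/R files and 114 to 123 in control files. That of the 8 members was 79.7 to 83.7 in H/R files and 87.8 to 95.8 in control files. The members' sum rests mostly on their brightest probes, Rrm1, Rrm2 and Cad, none of which was called, and says little about Dctd or Tyms. Without H/R replicate 1 the count of S-phase markers called lower was 6, without H/R replicates 2 and 3 it was 4, and without control replicates 2 and 3 it was 7. It was 2 without the filter on dim probes, where Cdt1 and Gins2 no longer passed (adjusted p = 0.0520 and 0.0507), and 0 after normexp correction, where Gins2 was -0.089 (adjusted p = 0.927).

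Of 11 tested markers of G2 and mitosis (20 listed) 2 fell and 0 rose, with a median of -0.16 and summed signals of 83.2 to 86.5 in H/R files and 87.5 to 95.0 in control files. Aurkb fell by 0.64 and Ccna2 by 0.47 (adjusted p = 0.0129 and 0.0257), whereas Ube2c (-0.35, adjusted p = 0.116) and Aurka (0.43, adjusted p = 0.0934) did not pass. With 1 array left out, Ube2c was -0.49 to -0.20 and Aurka 0.25 to 0.60, passing without control replicates 2 and 3 (adjusted p = 0.0435), and Aurka was 1.01 after normexp correction (adjusted p = 0.533). The count called lower was 1 without either control array, and 0 without either H/R array, without the filter on dim probes and after normexp correction. The part of these markers in the members' differences was not tested, and in bulk RNA fewer cells in S phase and less RNA per cell cannot be told apart. Mki67 had no matching probe.

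Of 9 regulators tested among 15 listed 4 fell and 0 rose, with a median of -0.46. E2f1, which activates genes of DNA synthesis, fell by 0.92 ± 0.10 (adjusted p = 0.00652), with levels of 1.59, 1.64 and 1.67 in H/R files and 2.49, 2.59 and 2.60 in control files. E2f7, a repressor in the same family, fell by 0.87 ± 0.09 (adjusted p = 0.00649). After normexp correction E2f7 was -0.29 (adjusted p = 0.639) and 0 regulators were called lower. Without the filter on dim probes 1 was, and both E2f genes missed the threshold (adjusted p = 0.0520 each). The cyclin E genes Ccne2 and Ccne1, which drive entry into S phase, fell by 1.44 ± 0.14 and 0.46 ± 0.10 (adjusted p = 0.00519 and 0.0348), though Ccne1 did not pass when any 1 array was left out. Myc, a known activator of Cad, had levels of -0.93, -0.37 and -0.42 in H/R files and 0.11, -0.01 and 0.01 in control files. The H/R arrays lay far apart, and its difference of -0.71 ± 0.20 did not pass (adjusted p = 0.0593). It was -0.45 without H/R replicate 1 (adjusted p = 0.138) and -0.98 without H/R replicates 2 and 3 (adjusted p = 0.0421), and it passed in 7 of 17 alternatives, among them scaling to the median (-0.84, adjusted p = 0.0218).

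**Figure D3:**
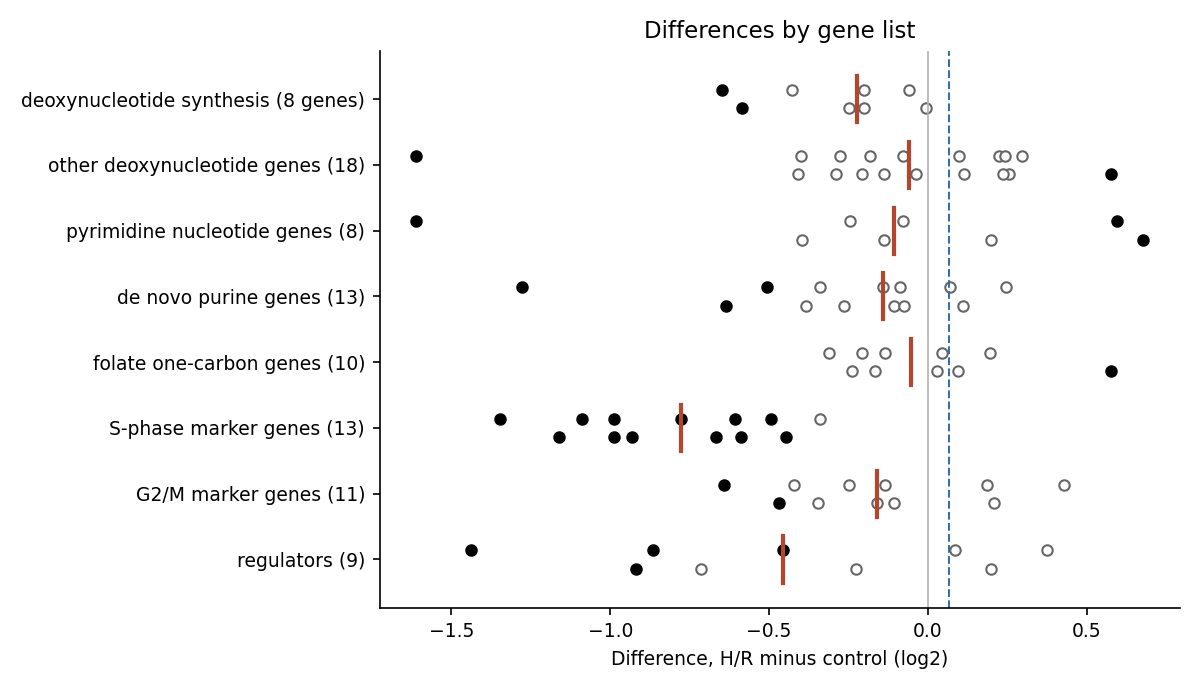
Each circle is a tested gene placed by its difference between H/R and control (H/R minus control, log2, x axis), in rows by gene list with the number tested. Filled circles passed an adjusted p of 0.05, red bars are list medians, and the dashed line is the median of all named genes at 0.07. The median is -0.78 for S-phase markers, -0.46 for regulators and -0.22 for the 8 deoxynucleotide synthesis genes.

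**Figure D4:**
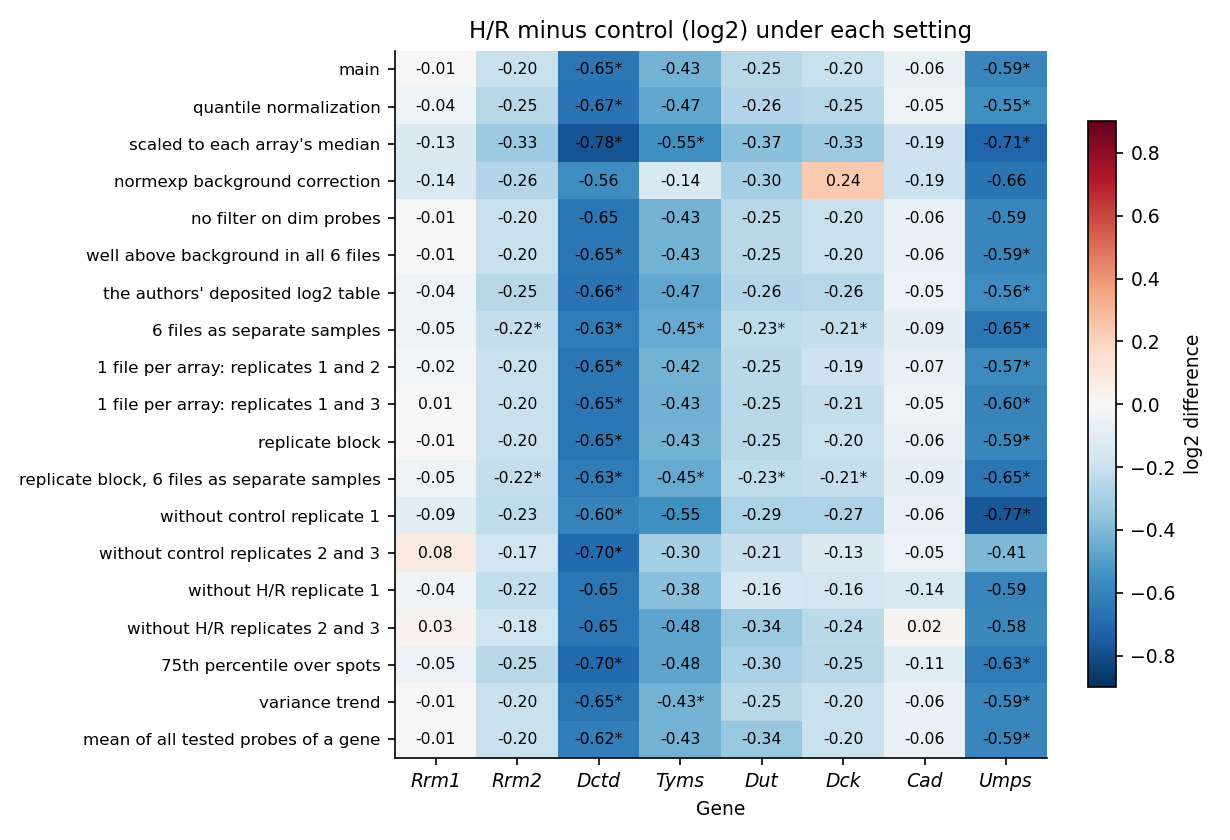
Rows are processing settings and columns the 8 genes, and each cell gives the difference between H/R and control (H/R minus control, log2), with an asterisk where the adjusted p was under 0.05. Dctd ranges from -0.78 to -0.56 and passes in 14 of 18 alternatives, and Umps ranges from -0.77 to -0.41 and passes in 13 of 18, while Rrm1 and Cad pass in none.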

How the data were processed

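RNA of 6 samples was measured on 1-colour (Cy3) arrays, and groups come from the labels. The authors read intensity values with Agilent Feature Extraction 11.0.1.1, per the submitters' processing notes. The deposited processed intensity was corrected for background on each array by that program, per the file headers, and arrays were not yet scaled to each other. Deposited flags of another kind (coded 0 or 1) mark outliers and spots well above background. A deposited table gives log2 values by the authors for 16841 probes, with medians of 9.182 to 9.187. Across probes its Pearson r with the log2 scanner values was 0.9998 to 0.9999, so it is on the log2 scale and not centred by gene, and how it was normalized is not stated.

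Spots of controls and outliers were dropped, the log2 values of each probe's spots were averaged, and the 75th percentile over the probes of each array was subtracted. Of 24684 probes 15899 were tested, those well above background in all 3 files of at least 1 group. Replicates 2 and 3 of a group were averaged, and H/R minus control was fitted with limma 3.58.1 in R 4.3.3 (lmFit, eBayes, two-sided, 2 residual and 2.86 prior degrees of freedom). Python 3.11.15, pandas 2.3.3 and matplotlib 3.10.9 did the rest. Accessions were matched without versions to a GRCr8 table, and 14274 of 15323 coding probes received a symbol; sequences are from RefSeq. On simulated data for this comparison (15899 probes, 200 changed) the fit recovered 16% of the probes changed by 0.5 log2 units, 98% of those changed by 1 and 100% of those changed by 2. The simulation gave 165 calls and the real data 3769, so adjustment was stricter in the simulation. Its recovery therefore does not give the power for the members.

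The members, lists and tests were chosen with earlier results of these data known. Named genes are the members, the genes of lowest adjusted p in each list (at most 4), and 12 fixed names, of which Samhd1 and Mki67 had no matching probe; 2 genes that this rule names are not reported here. Alternatives changed scaling, background correction, filter, replicates, pairing, probes and variance model. The files lack a mean spot signal, so normexp (offset 50) used the median signal.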

Additional observations from a re-analysis of the deposited data

How the results depend on the processing

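Dctd and Umps kept a negative difference under all 18 alternatives. The 2 members past the threshold became 0 after normexp correction, 0 without the filter on dim probes, 6 with the 6 files as separate samples and 6 when a replicate block was added to that fit. Leaving out 1 array at a time gave 0 to 2 members and 1008, 1091, 2040 or 2702 probes past the threshold, with the lone array left in its group assumed to vary like the others. Of all probes 3769 passed, against 0 after normexp (2044 at an unadjusted p under 0.05 in limma), 594 without the filter, 8309 with 6 files as samples and 8426 with the replicate block as well. The 6-file fits count 2 scans of 1 array as replicates. The members' median of -0.22 was -0.35 with arrays scaled to their median and -0.29 to -0.19 with 1 array left out. That scaling moved the median of all probes from 0.07 to -0.06 and the share of calls that were higher from 62.6% to 41.0%, and normexp moved the median to 0.33. The sign turned for Rrm1 (0.0060 with replicates 1 and 3 alone, 0.083 without control replicates 2 and 3, 0.029 without H/R replicates 2 and 3), Cad (0.025 without H/R replicates 2 and 3), Dck (0.24, normexp), Cda (1.01, normexp), Dhodh (0.038 without control replicates 2 and 3) and Tk2 (-0.030, scaled to the median). Over all alternatives, 474 values of other named genes kept their direction and side of the threshold, 73 lost a call, 45 gained one and 3 turned sign. The cause of these changes was not tested. Replicates 1 and 2 of both groups share a scan, and within it Dctd differed by -0.65 and Umps by -0.57, both still called. The labels do not say that replicate numbers pair the samples, and the replicate block on 4 arrays left the calls of all 8 members as they were (Dctd -0.65, Umps -0.59). With the percentile taken over spots, an alternative chosen after seeing the data, Dctd was -0.70 and Umps -0.63. All 8 members were well above background in all 6 files, and the number of arrays limits their precision.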
